A study of Mus musculus with 4 samples.

Results

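Collagens are the main structural proteins of the extracellular matrix, and their genes were followed here across the cells of 2 transplanted mouse tumors. The members were all 44 genes, of 32285 in the deposited matrices, whose symbol is Col, a number, the letter a and a number. By chain type, 11 are fibrillar, 8 belong to basement membranes and 25 to other families. The study grew B16F10 melanoma or MC38 colon carcinoma cells in wild-type (WT) mice and in Lrrc25-/- mice, which lack a leucine-rich repeat receptor of myeloid cells. Tumors were taken at day 14 (B16F10) or day 26 (MC38), and 100 mm3 from each of 3 tumors was pooled per group, so each of the 4 groups is 1 pool and 1 library. CD45+ cells isolated on beads were mixed 5:1 with unsorted suspension, which sets the share of stromal and tumor cells. The labels list no treatment, and mouse age is not given in the sources used here.

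Collagen molecules are triple helices of alpha chains, and several types need more than 1 kind of chain, as type I does with alpha 1 and alpha 2 chains. Fibrillar collagens build tensile fibrils and are made mostly by fibroblasts. Network-forming type IV collagen underlies endothelium and wraps pericytes, while fibril-associated, beaded-filament and transmembrane collagens tie fibrils to each other or to cells.

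Single-cell 3′ libraries held 10490 to 18545 barcodes and 105338548 to 138841749 UMIs (unique molecular identifiers, 1 per captured transcript). Of these barcodes 9799 to 17286 passed the quality limits, and pairs of libraries shared 96 to 247 barcodes, at most 1.4% of the smaller library. Cells were gated on fixed markers, none of them a collagen. The gates held 47, 66, 26 and 42 fibroblasts in WT B16F10, Lrrc25-/- B16F10, WT MC38 and Lrrc25-/- MC38, the order used throughout. They also held 53, 47, 28 and 3 endothelial cells, and 41, 29, 7 and 7 pericytes. There were 2876 and 1816 melanoma cells in B16F10 tumors, and 3272, 3652, 8466 and 7964 macrophages. In macrophages Lrrc25 was at 166, 5.00, 95.3 and 2.13 CPM (UMIs of a gene per 1000000 UMIs of the class), low in both Lrrc25-/- pools, though the labels do not say which stretch is deleted. Xist, the RNA of the inactive X chromosome, was at 0.0336, 0.0262, 653 and 664 CPM in macrophages. Tumor model, day of harvest and host sex therefore cannot be told apart. Ribosomal protein genes took 32.0%, 29.8%, 17.0% and 15.6% of fibroblast UMIs, and mitochondrial genes 0.28%, 0.358%, 3.04% and 2.26%. Their part in the comparison of models was not tested.

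The cells gated as MC38 tumor cells did not carry the epithelial markers that a colon carcinoma label leads one to look for. Krt18 and Cldn4 had no UMI in the 1554 cells of the gate from WT hosts and the 1322 from Lrrc25-/- hosts. Krt8 was seen in 0.257% and 0.378% of them, and Epcam in 0.129% and 0% (a count of 0 limits only cells with a UMI). Sox9, Tnnt2 and Crabp2 were present in all of these cells, since the gate asks for them, and the cells are called Sox9+Tnnt2+Crabp2+ cells here. The mesenchymal genes Prrx1 (90.6% and 92.2% of cells), Fbln2 (94.5% and 96.5%) and Pdpn (88.0% and 92.2%) were detected in most of them, whereas Lum was detected in 0.257% and 0.0756%. Of the 9 genes of the fibroblast gate, which the gate of these cells also limits, a median of 2 was detected per cell. They summed to 419 and 435 CPM, against 6154 and 8132 CPM in MC38 fibroblasts. Fap, Thy1, Pdpn, Fbn1, Twist2 and Prrx1 summed to 558 and 592 CPM, against 2121 and 2710 CPM.

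Across classes, fibrillar collagen was highest in fibroblasts, and basement-membrane collagen was highest in endothelium and pericytes. Other collagens had no single class: they summed to 2228, 2265, 4903 and 6197 CPM in fibroblasts and to 2991, 3362, 3633 and 5254 CPM in pericytes. Summed fibrillar collagen reached 23493, 21922, 24130 and 33355 CPM in fibroblasts, against 12.5, 15.6, 26.0 and 26.9 CPM in macrophages, which served as the control for free RNA. Summed basement-membrane collagen was at 4146, 4348, 6857 and 5193 CPM in endothelium (the last from 3 cells) and at 5114, 5449, 5815 and 6603 CPM in pericytes (7 cells in each MC38 pool). Fibroblasts held 719, 573, 642 and 614 CPM of it, and each remaining class less. In the Sox9+Tnnt2+Crabp2+ cells all collagens together came to 1341 (95% exact Poisson interval 1328 to 1354) and 1315 (1302 to 1328) CPM. Melanoma cells held 67.1 (65.3 to 68.9) and 76.9 (74.5 to 79.4) CPM, above the macrophages of the same tumors at 28.0 and 29.4 CPM. All intervals cover counting error only, because the spread between mice is hidden in each pool.

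**Figure D1:**
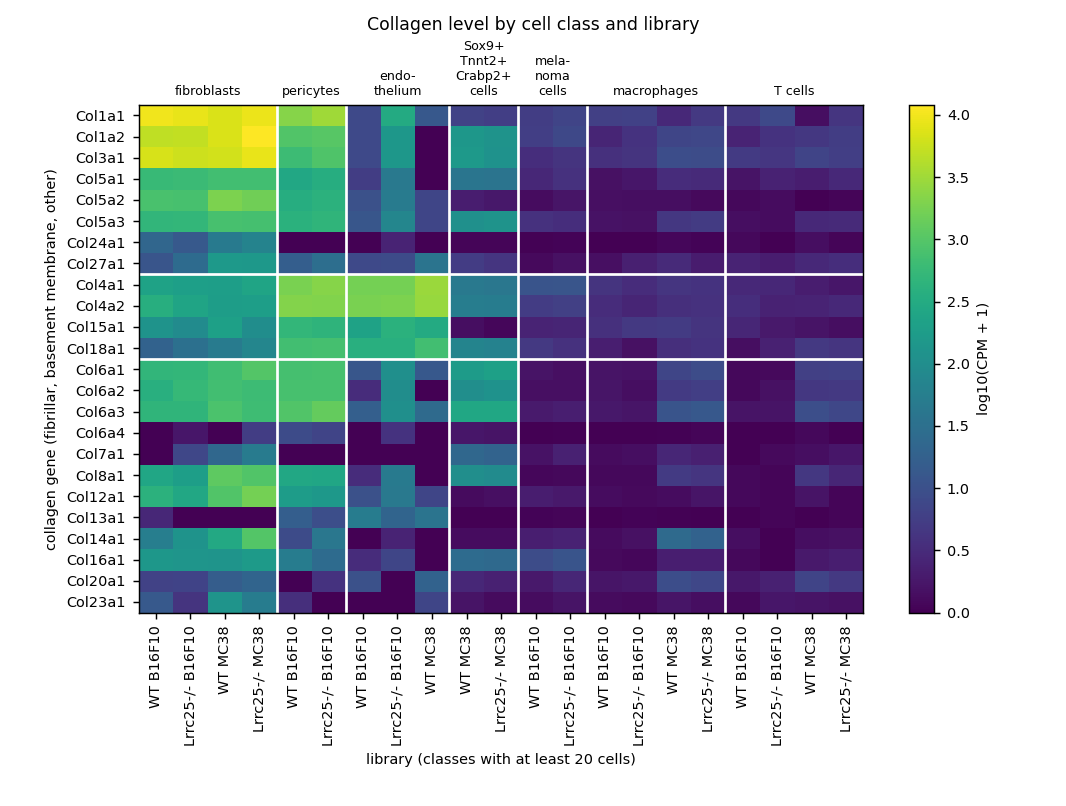
Level of the 24 collagens with at least 10 CPM in 2 or more libraries of a stromal or tumor class, as log10(CPM + 1) by color, in every class and library with at least 20 cells. Fibroblast columns are brightest in the fibrillar block (up to 12069 CPM, Col1a2), endothelial columns in the basement-membrane block, and melanoma, macrophage and T cell columns are dark throughout.

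Of the 44 members, 24 reached 10 CPM in at least 2 libraries of a stromal or tumor class (8 fibrillar, 4 basement membrane, 12 other). The remaining 20 stayed lower, with 28.7 CPM as their highest value (Col8a2, fibroblasts, 13 UMIs in Lrrc25-/- MC38). All 44 had a UMI in at least 1 of the 5 stromal and tumor classes. Library reads come from transcript 3′ ends and are not scaled by length, so different genes are compared below through the ratio of a pair across classes, not by their levels.

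Type I collagen, the chief fibrillar collagen, is built from the products of Col1a1 (chr11:94936224-94953042, GRCm38, plus strand) and Col1a2 (chr6:4504814-4541544, plus strand). In fibroblasts Col1a1 was at 9735, 8982, 7134 and 9181 CPM. Col1a2 was at 4968, 5051, 7066 and 12069 CPM. Col3a1, the chain of type III collagen, was at 6898, 5958, 6375 and 8856 CPM. Col1a1 was detected in 88.5% to 100% of fibroblasts in every library, and its levels overlap between models, while Col1a2 was higher in both MC38 pools than in either B16F10 pool. Ratios within a library do not depend on scaling: Col1a1 UMIs per Col1a2 UMI were 1.96 (1.87 to 2.05) and 1.78 (1.72 to 1.83) in B16F10 fibroblasts, and 1.01 (0.947 to 1.08) and 0.761 (0.730 to 0.792) in MC38 fibroblasts. The ratio was thus lower in both MC38 pools. B16F10 pericytes had ratios of 2.31 and 2.99. Melanoma cells gave 0.964 and 0.844, but their Col1a1 CPM was only 0.924 and 1.1 times that of macrophages, the free-RNA control. The Sox9+Tnnt2+Crabp2+ cells stood apart at 0.0370 (0.0314 to 0.0433) and 0.0384 (0.0324 to 0.0453), because Col1a2 was at 143 and 124 CPM there and Col1a1 at only 5.30 and 4.77 CPM. Col1a2 was detected in 73.7% and 70.9% of these cells and Col1a1 in 4.38% and 8.09%, with 25.9% of the WT Col1a1 UMIs in 1 cell.

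**Figure D2:**
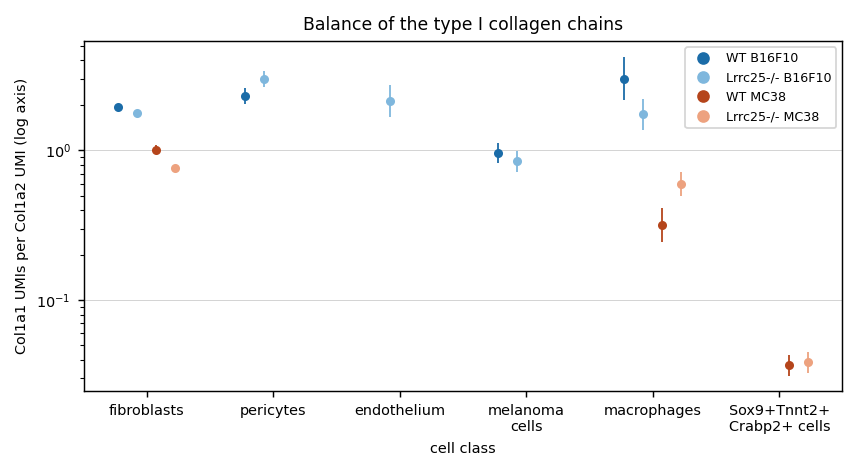
Col1a1 UMIs per Col1a2 UMI on a log axis, by cell class and library, with 95% counting intervals, where counts allowed a ratio (pools of at least 20 cells). Fibroblasts lie at 1.96 and 1.78 in B16F10 and at 1.01 and 0.761 in MC38, and the Sox9+Tnnt2+Crabp2+ cells at 0.0370 and 0.0384.

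Since the ratios of type I and III chains recur below, DNA from the start-site windows of RefSeq (GRCm38.p6) is shown for Col3a1 and Col1a2; no window was found for Col1a1. For Col3a1 these are the 250 bases before the first annotated exon (chr1:45311288-45311537, plus strand), and for Col1a2 the 123 bases of its window that lie between annotated exons, inside the gene as placed above (chr6:4505370-4505492, plus strand). Motifs were searched on both strands. Capitals mark a match to the GC box, spelled GGGCGG, or to the TATA box, spelled TATAAA. The CCAAT box, spelled CCAAT, had no match in either stretch, although the whole Col1a2 window holds CCAAT, not within the bases shown.
Col3a1: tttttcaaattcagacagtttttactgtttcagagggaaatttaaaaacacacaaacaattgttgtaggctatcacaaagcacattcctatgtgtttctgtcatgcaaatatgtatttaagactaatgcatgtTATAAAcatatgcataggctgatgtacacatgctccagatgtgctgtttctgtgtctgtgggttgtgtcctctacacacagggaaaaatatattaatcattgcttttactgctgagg
Col1a2: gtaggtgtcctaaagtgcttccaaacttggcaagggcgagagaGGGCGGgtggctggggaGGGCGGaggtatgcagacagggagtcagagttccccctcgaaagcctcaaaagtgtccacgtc
The Col3a1 stretch held 1 TATAAA and no GC box, and the Col1a2 stretch held 2 GC boxes and no TATAAA. Over windows of 300 bases around the start (250 before, 50 after), GGGCGG was found in 23 of 38 collagen windows (60.5%, from 35 members) and in 35.7% of 32851 windows of all genes. CCAAT was found in 34.2% against 37.4%, and TATAAA in 13.2% against 13.6%. These are letter matches and say nothing of binding.

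Minor fibrillar chains were counted in fibroblasts as well, though not only there. In B16F10, Col5a3 CPM was 795 and 906 times that of macrophages in fibroblasts, and 670 and 861 times in pericytes. For Col27a1 these values were 23 and 20.3 in fibroblasts and 32.5 and 22.6 in pericytes. Col5a1 and Col5a2 were higher in fibroblasts than in pericytes of both B16F10 pools. Col5a1, a chain of the type V collagen that starts fibrils, was at 558, 604, 702 and 689 CPM in fibroblasts. Col5a2, its partner chain, was at 816, 786, 1855 and 1572 CPM, and Col5a3 at 481, 498, 788 and 749 CPM. Col5a2 UMIs per Col5a1 UMI were 1.46, 1.30, 2.64 and 2.28 in fibroblasts, higher in both MC38 pools, but 0.0307 (0.0213 to 0.0429) and 0.0228 (0.0147 to 0.0338) in the Sox9+Tnnt2+Crabp2+ cells. In those cells the Col5a3 to Col5a1 ratio was 2.93 and 3.51, against 0.861, 0.824, 1.12 and 1.09 in fibroblasts. The Sox9+Tnnt2+Crabp2+ cells therefore had UMIs of Col1a2, Col3a1, Col5a1 and Col5a3 with few of Col1a1 and Col5a2. Col24a1 and Col27a1, of the small clade of fibrillar collagens seen in cartilage and bone, were at 21.6, 12.6, 45.1 and 66.3 CPM and at 10.8, 26.0, 158 and 148 CPM in fibroblasts. Both had higher CPM in the MC38 pools, on a scale with the common shift described below. With TMM Col27a1 was called higher and Col24a1 was not.

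Type IV collagen is the network of basement membranes, and Col4a1 (chr8:11198423-11312826, minus strand) and Col4a2 (chr8:11312805-11449287, plus strand) are transcribed head to head. Their first exons overlap by 22 bases (chr8:11312805-11312826). The counting is not stated to use strand, and UMIs from this overlap could not be split, though the libraries read 3′ ends.
In endothelium Col4a1 was at 1708, 1678, 2983 and 1875 CPM. Col4a2 was at 1845, 1894, 2862 and 2366 CPM, and every endothelial cell had a Col4a1 UMI. Col4a1 UMIs per Col4a2 UMI were 0.926, 0.886, 1.04 and 0.793 in endothelium, and 0.883 and 1.07 in B16F10 pericytes. In melanoma cells the ratio was 2.41 (2.12 to 2.74) and 2.20 (1.89 to 2.57). The melanoma ratio was above those of endothelium, pericytes of B16F10 and the Sox9+Tnnt2+Crabp2+ cells (0.834 and 0.795), with no overlap of the intervals. Macrophages of B16F10, the free-RNA control, had 1.33 (0.964 to 1.84) and 1.44 (1.03 to 2.03). The latter interval overlaps that of melanoma cells in the same pool. So does that of the 7 pericytes of Lrrc25-/- MC38, at 1.58 (1.25 to 2.02). Melanoma levels were low, at 10.5 and 10.9 CPM for Col4a1 and 4.36 and 4.98 CPM for Col4a2. Macrophages of the same tumors held 3.13 and 2.30 CPM of Col4a1 and 2.35 and 1.60 CPM of Col4a2.

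Col15a1 and Col18a1 code for basement-membrane collagens, the latter the source of endostatin. In endothelium Col15a1 was at 220, 407, 315 and 433 CPM, and Col18a1 at 373, 368, 697 and 519 CPM. Pericytes of B16F10 tumors had 498 and 453 CPM of Col15a1 and 697 and 755 CPM of Col18a1. In fibroblasts Col15a1 was at 124, 93.1, 210 and 99.4 CPM and Col18a1 at 18.0, 31.6, 48.8 and 75.1 CPM. In the Sox9+Tnnt2+Crabp2+ cells Col18a1 was at 69.4 and 62.7 CPM and Col15a1 at 0.393 and 0.162 CPM. Col13a1, a transmembrane collagen, was mainly counted in endothelium, at 50.4, 19.6, 36.4 and 86.6 CPM (22, 13, 6 and 3 UMIs), and did not exceed 15.3 CPM in pericytes or 1.80 CPM in fibroblasts.

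Basement-membrane genes made up 96.3%, 97.5% and 96.8% of collagen UMIs in endothelium of WT B16F10, WT MC38 and Lrrc25-/- MC38, but 78.2% in Lrrc25-/- B16F10. In that pool Col1a1 was at 309 CPM, against 6.87 CPM in WT B16F10. Of its 205 Col1a1 UMIs, 141 (68.8%) came from 1 cell. Taken gene by gene, the top cell gave 83.5% of the Col3a1, 72.9% of the Col1a2, 78.6% of the Col6a1 and 74.6% of the Col6a2 UMIs. For Col5a3 and Col6a3 the top cell gave 44.9% and 41.7%. Whether these genes shared the same top cell was not tested. The fibroblast gate list (9 genes) summed to 131 CPM in this class, against 38.9, 18.2 and 86.6 CPM in WT B16F10, WT MC38 and Lrrc25-/- MC38. A list of 4 pericyte and mural genes (Pdgfrb, Mcam, Acta2, Myh11) summed to 844 CPM, against 382, 570 and 260 CPM. Of it Acta2 made up 572 CPM, against 64.1, 0 and 0 CPM, and Mcam, which endothelium also expresses, 252 CPM, against 309, 570 and 260 CPM. The pericyte gate list (8 genes) was at 243 CPM, against 266, 236 and 0 CPM. The part of these cells in the result was not tested.

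Pericytes combined fibrillar and basement-membrane collagens. In B16F10 their fibrillar sum was 4820 and 6334 CPM beside the type IV, XV and XVIII values above, with Col1a1 at 2194 and 3126, Col1a2 at 949 and 1045, and Col3a1 at 628 and 894 CPM. Col6a3, a chain of the beaded-filament collagen VI, was at 926 and 1289 CPM. The 7 pericytes of each MC38 pool gave 5124 and 5819 CPM of fibrillar and 5815 and 6603 CPM of basement-membrane collagen. Col6a4 passed the 10 CPM rule through these pools alone, at 27.6 and 31.4 CPM from 2 UMIs each.

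The model comparison asked which collagens differ between B16F10 and MC38 tumors. It was tested where each library had at least 20 cells, with edgeR's quasi-likelihood test on class sums (2 pools per model, genotype as a term, 1 residual degree of freedom, adjusted over all genes). Since edgeR shares its estimates of spread across genes, the p-values do not measure the spread of each gene alone. They cover only these pools and not single mice. Fewer cells of a kind inside a gate cannot be told apart from less RNA per cell. In fibroblasts 21 collagens could be tested, of which 6 were higher and 2 lower in MC38 at an adjusted p under 0.05. Of all 5583 genes tested, 20.4% were called higher and 22.2% lower, so the collagens' share is near that background. By group, 5 of the 9 other collagens tested were higher and none lower. Of the 8 fibrillar ones 1 was higher and 1 lower, and of the 4 basement-membrane ones 1 was lower. Without regard to the scaling, other collagens took 8.43% and 9.15% of collagen UMIs in B16F10 fibroblasts and 16.5% and 15.4% in MC38 fibroblasts, and fibrillar ones 88.9% and 88.5% against 81.3% and 83.0%. Endothelium and pericytes, with 3 and 7 cells in a pool, were not tested.

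The CPM values of the 2 models carry a common shift. The median log2 difference of all fibroblast genes, MC38 minus B16F10, was 0.02 after TMM scaling, the scaling of the test, and 0.76 when only class totals were used. The collagen medians were -0.01 and 0.74. With class totals 13 collagens were called higher and none lower, beside 42.9% and 10.1% of all genes. In macrophages the median of all genes was 0.05 with TMM and 0.46 with class totals, and in tumor cells -0.00 and 0.62. Directions below are relative to the TMM scaling unless stated. CPM values, and overlaps between pools, are without TMM and carry the shift. By CPM 15 of the 21 collagens tested in fibroblasts were higher in each MC38 pool than in either B16F10 pool, and 1 was lower. The share of all genes without overlap was not counted.

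Col8a1, a chain of a short network-forming collagen of vessel walls, was at 259, 192, 1164 and 943 CPM in fibroblasts, with both MC38 pools above both B16F10 pools. Its log2 difference was 1.51 (SE 0.286, edgeR adjusted p 0.0084). Col8a1 was detected in 53.2% and 54.5% of B16F10 fibroblasts and in 88.5% and 85.7% of MC38 fibroblasts. Col14a1, a fibril-associated collagen, was at 54.0, 124, 289 and 987 CPM, again without overlap of the models (log2 difference 2.02, SE 0.352, adjusted p 0.00671). Col27a1, with the levels given above, differed by 2.29 (SE 0.423, adjusted p 0.00797). These 3 genes, of the 8, passed the threshold under each alternative run, among them both scalings, DESeq2 and leaving out any 1 library.

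The other 3 collagens called higher depended on the setting. Col12a1, a fibril-associated collagen of load-bearing tissue, was at 422, 279, 939 and 1663 CPM (log2 difference 1.15, SE 0.399, adjusted p 0.0488). Its adjusted p was 0.12 without Lrrc25-/- B16F10, 0.12 without Lrrc25-/- MC38 and 0.0711 with no filter on low counts. Col23a1, a transmembrane collagen, was at 12.6, 3.16, 128 and 50.8 CPM (log2 difference 2.86, SE 0.465, adjusted p 0.00568), and without Lrrc25-/- B16F10 its adjusted p was 0.053. Col7a1, the anchoring-fibril collagen, had 0, 8, 6 and 22 UMIs, or 0, 6.31, 22.5 and 48.6 CPM. Its log2 difference was 2.59 (SE 0.649, adjusted p 0.018), and its adjusted p was 0.0654 without WT B16F10. DESeq2 did not call it and gave it no adjusted p. By CPM all 3 were higher in each MC38 pool than in either B16F10 pool, as were most collagens tested.

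Col1a1 and Col4a2 were called lower. The log2 difference of Col1a1 was -0.93 (SE 0.207, adjusted p 0.0128) with TMM, but -0.18 (adjusted p 0.329) with class totals, and its adjusted p was 0.0717 without WT MC38. Col4a2 was at 355, 243, 188 and 192 CPM in fibroblasts, with both MC38 pools lower (log2 difference -1.34, SE 0.343, adjusted p 0.0192), and at -0.59 (adjusted p 0.167) with class totals. Col4a1 was at 220, 200, 191 and 245 CPM and was not called. For Col1a2 the order of the 2 scalings was the reverse: 0.16 (adjusted p 0.601) with TMM and 0.91 (adjusted p 9.95e-07) with class totals. The Col1a1 to Col1a2 ratios given above do not hinge on that choice.

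Collagen VI forms beaded filaments near cells. In fibroblasts Col6a1 was at 492, 503, 680 and 967 CPM, Col6a2 at 373, 540, 706 and 636 CPM, and Col6a3 at 461, 465, 830 and 652 CPM. All 3 chains had higher CPM in both MC38 pools, but none passed the test with TMM, and their direction turned with the scaling. With class totals Col6a1 (log2 difference 0.74, adjusted p 0.0287) and Col6a3 (0.69, adjusted p 0.0442) were called higher. Col16a1, a fibril-associated collagen, was at 146, 135, 128 and 168 CPM and Col20a1, of the same family, at 5.40, 5.52, 15.0 and 19.9 CPM.

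**Figure D3:**
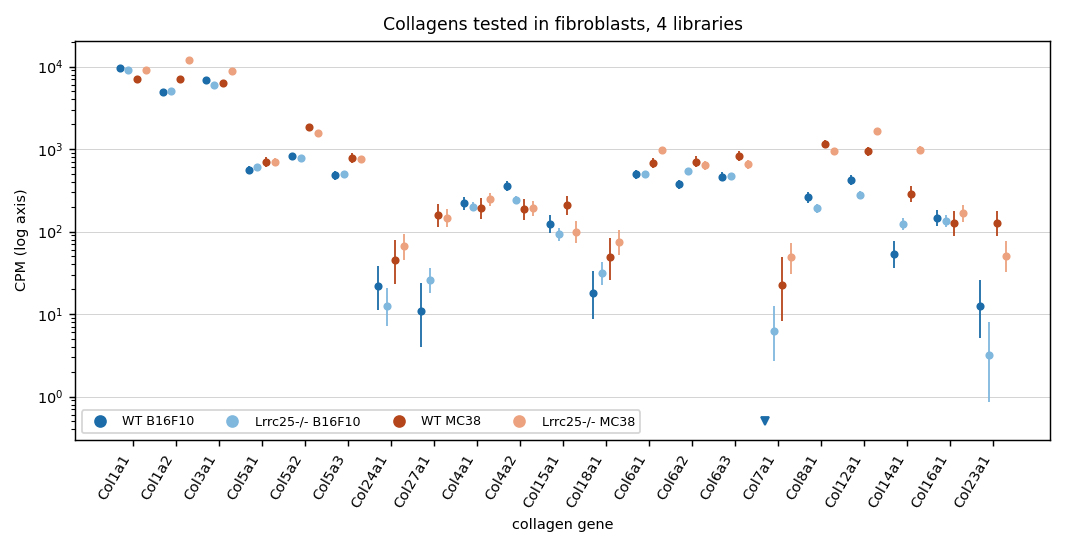
CPM on a log axis of the collagens tested in fibroblasts, by library, with 95% exact Poisson intervals; the triangle marks a library with no UMI (Col7a1, WT B16F10). Col8a1, Col14a1, Col27a1, Col12a1, Col23a1 and Col7a1 are higher in both MC38 pools, while Col1a1 and Col3a1 overlap between models.

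Markers of other cells moved with the tumor model inside the fibroblast gate. The pericyte list of 8 genes summed to 1101, 597, 191 and 150 CPM, of which Ndufa4l2, also a hypoxia-induced gene, made up 1052, 555, 116 and 55.2 CPM. Rgs5, a defining pericyte gene, was at 1.80, 1.58, 0 and 0 CPM, and Higd1b at 0, 0.789, 0 and 0 CPM. Apart from Ndufa4l2, the list was not lower in MC38. The list of Pdgfrb, Mcam, Acta2 and Myh11 summed to 847, 942, 518 and 700 CPM. Sox9, Tnnt2 and Crabp2 together came to 48.6, 37.1, 375 and 197 CPM. A median of 1 of these 3 genes was detected per fibroblast in each MC38 pool, and of 0 in each B16F10 pool. Tnnt2 was seen in 3 of 26 and 1 of 42 MC38 fibroblasts. The part of these cells in the result was not tested. The Sox9+Tnnt2+Crabp2+ cells themselves held 0.360 and 0.357 CPM of Col14a1, 0.295 and 0.487 of Col12a1, 0.622 and 0.324 of Col23a1, 4.22 and 3.28 of Col27a1 and 102 and 93.6 of Col8a1, all below the MC38 fibroblasts. Col7a1 was at 21.9 and 19.1 CPM in them, near its level in WT MC38 fibroblasts.

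Among tumor cells, Sox9+Tnnt2+Crabp2+ cells of MC38 were compared with melanoma cells of B16F10. Of 32 collagens tested, 19 were higher and 9 lower in the MC38 cells (edgeR), where 39.0% of 15852 genes were called higher and 39.1% lower. By group, 6 of 10 fibrillar collagens tested were higher and 3 lower, 4 of 6 basement-membrane collagens were higher and 2 lower, and 9 of 16 others were higher and 4 lower. Of the 28 calls, 25 held under each alternative, the exceptions being Col1a1, Col11a1 and Col11a2. This contrast sets 2 cell lines from different tissues side by side.

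The largest of these differences was in Col8a1, at 0.195 and 0.224 CPM in melanoma cells and 102 and 93.6 CPM in Sox9+Tnnt2+Crabp2+ cells (log2 difference 8.24, SE 0.268, adjusted p 3.6e-199). The collagen VI chains followed. Col6a1 was at 0.612 and 0.449 against 173 and 208 CPM (log2 difference 7.81, SE 0.269), Col6a2 at 0.456 and 0.469 against 104 and 119 CPM (7.27, SE 0.249), and Col6a3 at 1.00 and 1.20 against 271 and 265 CPM (7.31, SE 0.268). In melanoma cells Col6a1 was at 0.957 and 0.779 times its macrophage CPM, Col6a2 at 0.645 and 1.12 times, and Col6a3 at 1.19 and 1.64 times. Col8a1 was at 0.235 CPM in macrophages of both B16F10 pools. The size of these folds thus rests on melanoma counts near the free-RNA control. Other collagens, chiefly type VI, made up 52.8% and 56.1% of the collagen UMIs of the Sox9+Tnnt2+Crabp2+ cells. In them Col6a1 UMIs per Col6a2 UMI were 1.66 and 1.75, against 1.32, 0.931, 0.963 and 1.52 in fibroblasts.

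Among fibrillar chains Col3a1 was at 2.47 and 3.16 CPM in melanoma cells and 153 and 118 CPM in Sox9+Tnnt2+Crabp2+ cells (log2 difference 4.97, SE 0.217). Col5a3 was at 2.79 and 2.43 against 110 and 125 CPM (4.86, SE 0.212) and Col1a2 at 4.74 and 6.81 against 143 and 124 CPM (3.93, SE 0.205). In melanoma cells Col3a1 was at 0.919 and 1.03 times its macrophage CPM, near the free-RNA control. Col1a2 was at 2.88 and 2.28 times and Col5a3 at 4.6 and 4.42 times. The differences of these chains between the tumor cells lay far outside the spread between pools. Col1a1 did not: its values were 4.57 and 5.75 against 5.30 and 4.77 CPM, the groups overlapped, and the call (log2 difference -0.64, adjusted p 0.0043) ended with class totals (-0.02, adjusted p 0.93) and with DESeq2 (adjusted p 0.0776). Of the basement-membrane chains, Col18a1 (log2 difference 3.70, SE 0.187), Col4a2 (2.86, SE 0.177) and Col4a1 (1.36, SE 0.166) were higher in the MC38 cells. Col16a1 was at 7.77 and 10.3 CPM in melanoma cells and at 25.6 and 23.4 CPM in the MC38 cells (0.84, SE 0.167).

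Melanoma cells were higher in a few collagens of low level. Col9a1, a fibril-associated chain best known from cartilage, was at 4.01 and 2.47 CPM in melanoma cells and had no UMI in either MC38 pool. Against a floor of 3 UMIs per library it was at least 40.8-fold higher in melanoma cells from WT hosts. In those from Lrrc25-/- hosts it was at least 25.4-fold higher. Col4a4, a chain of the kidney-type collagen IV network, was at 3.84 and 4.59 against 0.688 and 0.584 CPM (log2 difference -3.34, SE 0.317). Col15a1, Col14a1, Col12a1 and Col2a1 were also lower in the MC38 cells, none of them above 1.63 CPM in melanoma cells. Macrophages of the B16F10 pools held 2.69 and 3.69 CPM of Col15a1, above the 1.55 and 1.63 CPM of melanoma cells, so that level is at or below the free-RNA control.

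Macrophages were the control for free RNA, and in them 14 collagens of 24 tested were higher in MC38 and 1 was lower (edgeR), where 33.6% of 14981 genes were higher and 31.4% lower. Of these 15 calls 11 held under each alternative, the exceptions being Col5a1, Col7a1, Col9a3 and Col18a1, each lost with DESeq2. Summed collagen was 28.0, 29.4, 103 and 96.9 CPM in macrophages and 24.2, 28.2, 56.2 and 53.7 CPM in T cells of the same libraries. Col6a3 was at 0.841, 0.732, 10.5 and 12.1 CPM in macrophages (log2 difference 3.44, SE 0.255). In T cells it was at 0.649, 0.622, 8.62 and 6.29 CPM, so its CPM was higher in MC38 in both classes. In macrophages Col6a1 was at 0.639, 0.576, 6.12 and 7.84 CPM and Col8a1 at 0.235, 0.235, 3.92 and 3.19 CPM. The Col6a1 to Col6a2 ratio of MC38 macrophages was 1.58 and 1.69, beside 1.66 and 1.75 in the Sox9+Tnnt2+Crabp2+ cells and 0.963 and 1.52 in fibroblasts. In Lrrc25-/- MC38 the intervals of macrophages (1.43 to 2) and fibroblasts (1.31 to 1.77) overlapped. The Col1a1 to Col1a2 ratio of MC38 macrophages, 0.317 and 0.597, lay between the Sox9+Tnnt2+Crabp2+ cells and the fibroblasts of the same libraries. Col1a1, the 1 collagen called lower, was at 4.94, 5.21, 1.93 and 3.77 CPM (log2 difference -1.30, SE 0.275, adjusted p 0.00137). Free RNA and RNA of the macrophages themselves were not told apart for these genes.

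Col14a1 (chr15:55307750-55520803, plus strand) had another distribution. In macrophages it was at 0.336, 0.549, 24.8 and 17.9 CPM, with both MC38 pools above both B16F10 pools (log2 difference 5.11, SE 0.279, edgeR adjusted p 9.63e-08). T cells of the same libraries had 0.433, 0, 0.442 and 0.524 CPM (2, 0, 2 and 4 UMIs), and the Sox9+Tnnt2+Crabp2+ cells 0.360 and 0.357 CPM. It was detected in 10 of 3272, 21 of 3652, 826 of 8466 and 680 of 7964 macrophages, the last 2 being 9.76% and 8.54%. Thinned to 2000 UMIs per cell, the shares were 0.0998%, 0.106%, 4.71% and 3.11% of macrophages, and 0.0827% and 0.13% of MC38 T cells. Col14a1 UMIs per Col3a1 UMI were 3.07 and 2.30 in MC38 macrophages, 0.0453 and 0.111 in fibroblasts, and 0.0769 and 0.111 in T cells of those libraries, so the macrophage counts did not keep the ratio of the fibroblasts.

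**Figure D4:**
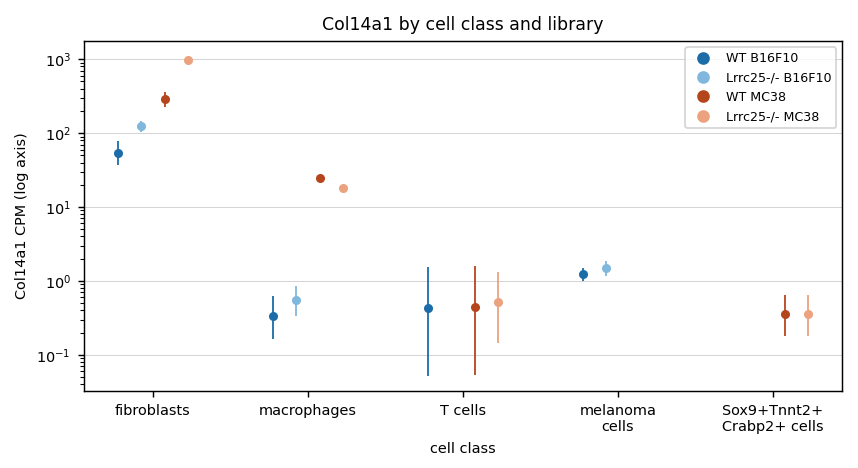
Col14a1 CPM on a log axis by cell class and library, with 95% exact Poisson intervals; libraries with no UMI are not drawn. MC38 macrophages lie at 24.8 and 17.9 CPM, above B16F10 macrophages (0.336 and 0.549) and above T cells, while fibroblasts lie at 54.0 to 987 CPM.

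Col20a1 was at 0.673, 0.811, 8.19 and 6.30 CPM in macrophages and 0.866, 1.37, 5.97 and 3.80 CPM in T cells, higher in MC38 in both classes. In the Sox9+Tnnt2+Crabp2+ cells it was at 1.83 and 1.33 CPM. An annotated transcript on the same strand, BX649560.1, overlaps exons of Col20a1 (chr2:180986535-181018363), and UMIs of these transcripts could not be told apart.

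The genotype comparison asked what the loss of Lrrc25 in the host changes. Over both models, no collagen of the 21 tested in fibroblasts passed edgeR's threshold, and neither did any of the 5583 genes (0.0%). At an unadjusted p under 0.05 there were 155 genes (2.78%), among them 3 collagens, and DESeq2 called none. In macrophages none of 24 collagens passed and none had an unadjusted p under 0.05 (551 genes did). There 0.02% of all genes were higher and 0.0467% lower in Lrrc25-/-, and DESeq2 called 11 genes and no collagen.

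Within each model there is 1 pool per genotype and no test, so a collagen with at least 50 UMIs over both pools was described as past a ratio of 1.5. In B16F10 fibroblasts 17 were measured, of which 2 were past it upward (Col14a1 and Col18a1) and 1 downward (Col12a1), where 21.7% and 6.51% of all measured genes were. In MC38 fibroblasts 18 were measured, with 3 upward (Col14a1, Col12a1, Col1a2) and 2 downward (Col15a1, Col23a1), where 15.7% and 11.2% of genes were. These shares are near those of all genes. The median Lrrc25-/- to WT ratio of all measured genes was 1.13 in B16F10 fibroblasts and 1 in MC38 fibroblasts. Ratios within a model are not corrected for that offset.

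Col14a1 was the collagen past the ratio in the same direction in both models. Its Lrrc25-/- to WT ratio in B16F10 fibroblasts was 2.29 (1.54 to 3.51), that in MC38 fibroblasts 3.41 (2.68 to 4.41), and the share of fibroblasts with a UMI was 38.3% and 69.7%, then 65.4% and 88.1%. In the test over both models its log2 difference was 1.44 (edgeR unadjusted p 0.00329, adjusted p 0.999), and with class totals 1.51 (adjusted p 0.0239). Macrophages of MC38 did not share that direction, with 24.8 CPM in WT and 17.9 in Lrrc25-/-. The other 2 collagens with an unadjusted p under 0.05 were Col23a1 (log2 difference -1.53, p 0.00944) and Col15a1 (-0.80, p 0.049), both with an adjusted p of 0.999.

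Summed fibrillar collagen in fibroblasts had a Lrrc25-/- to WT ratio of 0.933 (0.914 to 0.953) for B16F10 tumors, and for MC38 tumors 1.38 (1.34 to 1.42). The MC38 value was 1.08 under a stricter fibroblast gate, which left 20 and 39 cells. Among the abundant chains of MC38 the ratio was highest for Col1a2, at 1.71 (1.62 to 1.80), next to 1.39 (1.31 to 1.47) for Col3a1 and 1.29 (1.22 to 1.36) for Col1a1. In B16F10 these ratios were 1.02, 0.864 and 0.923. The basement-membrane sum was at 0.798 (0.705 to 0.904) and 0.956 (0.788 to 1.16), and that of other collagens at 1.02 (0.950 to 1.09) and 1.26 (1.18 to 1.35). With 26 to 66 cells a pool, and mice pooled, differences of this size cannot be assigned to genotype rather than to the pools.

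**Figure D5:**
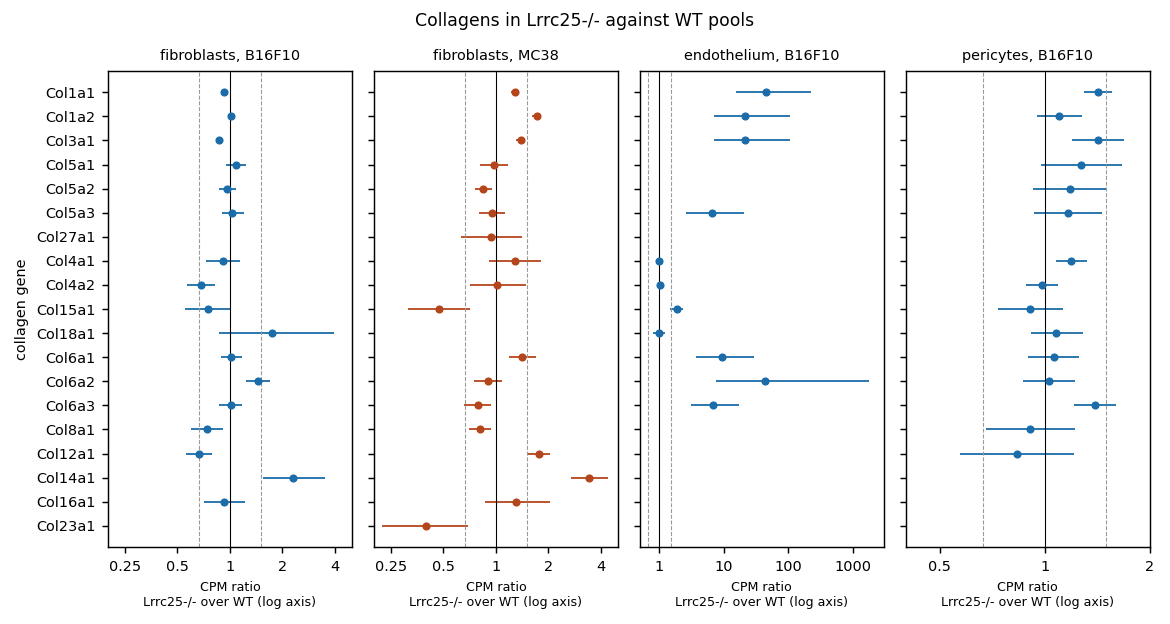
Ratio of Lrrc25-/- to WT CPM on a log axis for collagens with at least 50 UMIs, in fibroblasts of each model and in endothelium and pericytes of B16F10, with 95% counting intervals; dashed lines mark a 1.5-fold ratio and the panels have their own scales. Col14a1 lies at 2.29 and 3.41 in fibroblasts, and the endothelial fibrillar ratios, up to 45.0, include that of Col1a1, with 68.8% of its Lrrc25-/- UMIs in 1 cell.

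In B16F10 endothelium 11 collagens were measured, of which 8 were past 1.5-fold upward and none downward, where 9.1% and 8.31% of genes were. Of these 8, Col15a1 had a ratio of 1.85 (1.46 to 2.36), and the rest were type I, III, V and VI chains, with the share of each gene's top cell given above. The fibrillar ratio of 14.7 (9.69 to 23.4) was 3.73 without the 5% of cells with most UMIs. Col4a1, Col4a2 and Col18a1 had ratios of 0.983, 1.03 and 0.985. In B16F10 pericytes none of 15 collagens was past 1.5-fold (6.76% of genes were upward and 6.48% downward), and the largest ratios were 1.42 for Col1a1 and Col3a1.

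In melanoma cells 26 collagens were measured, with 6 upward (Col5a1, Col5a2, Col7a1, Col9a3, Col20a1, Col23a1) and 1 downward (Col9a1), where 8.04% and 1.38% of genes were. None of these 7 was above 4.01 CPM in either pool, and the sum of all collagens had a ratio of 1.15 (1.10 to 1.20). In the Sox9+Tnnt2+Crabp2+ cells 23 were measured, with 1 upward (Col11a1) and 1 downward (Col11a2), where 3.23% and 3.91% of genes were. Their collagen sum had a ratio of 0.981 (0.967 to 0.994), with Col3a1 at 0.769, Col1a2 at 0.865 and Col6a1 at 1.20. In macrophages, 2 of 11 collagens in B16F10 (Col1a2 and Col27a1) and 2 of 22 in MC38 (Col1a1 and Col12a1) were upward, where 6.4% and 2.58% of genes were. Downward were Col18a1 in B16F10, and Col23a1 and Col27a1 in MC38, where 3.14% and 7.67% of genes were.

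Collagen chains are modified and folded in the endoplasmic reticulum, trimmed of their propeptides outside the cell, crosslinked, and bound by receptors. Of 43 genes listed for these steps, 33 could be tested in fibroblasts, of which 2 were higher and 13 lower in MC38 (20.4% and 22.2% of all genes were), with a median log2 difference of -0.80 beside 0.02 for all genes. Of 18 genes for modification and folding 10 were lower and none higher, with a median of -1.49. With class totals 8 of these 18 were lower and 4 higher, so the balance depends on the scaling. The largest falls were in Pcolce, the enhancer of procollagen C-proteinase (987, 1180, 327 and 389 CPM, log2 difference -2.32, SE 0.274), and in the lysyl hydroxylase gene Plod1 (277, 152, 78.8 and 64.0 CPM, -2.24, SE 0.372). Next came Crtap (-2.15), Plod3 (-1.97), Ppib (-1.94) and P3h1 (-1.91), and these 6 also passed with class totals. Crtap, Ppib and P3h1 encode the prolyl 3-hydroxylation complex. Serpinh1, the collagen chaperone HSP47, was at 1410, 2330, 1110 and 1030 CPM (-1.49, SE 0.269, adjusted p 0.00737).

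Higher in MC38 fibroblasts were the collagen-binding integrin genes Itga1 (5.40, 5.52, 33.8 and 55.2 CPM, log2 difference 2.37, SE 0.520) and Itgb1 (297, 295, 1010 and 1030 CPM, 1.06, SE 0.278). The crosslinking enzyme gene Lox was at 852, 578, 1050 and 700 CPM and was not called (-0.43 with TMM and 0.32 with class totals). Ddr2, a receptor tyrosine kinase for fibrillar collagen, was at 68.5, 83.6, 180 and 161 CPM (0.44, adjusted p 0.309, but 1.18, adjusted p 0.00785, with class totals). Ppib, Crtap, Itga1 and Itgb1 differed in the same direction in macrophages, with log2 differences of -1.41, -1.84, 2.59 and 1.04. The list as a whole did not follow the fibroblasts there. Of 36 genes tested in macrophages 13 were higher and 6 lower in MC38 (33.6% and 31.4% of all genes were). Of the 18 for modification and folding 6 were higher and 5 lower, with a median log2 difference of 0.04. No gene of the list passed the genotype test in fibroblasts or macrophages.

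In tumor cells 37 of the 43 pathway genes were tested, with 21 higher and 12 lower in the MC38 cells, where 39.0% and 39.1% of all genes were. P3h4, part of a lysyl hydroxylation complex, was at 0.156 and 0.122 CPM in melanoma cells and 40.9 and 44.2 CPM in Sox9+Tnnt2+Crabp2+ cells (log2 difference 7.55, SE 0.264). Loxl4 (5.52), P4ha3 (5.51), Mrc2 (4.41), Loxl1 (3.44) and Adamts14 (3.38) followed. P3h2 (-4.27), Itga1 (-3.93), Crtap (-2.52), Ppib (-2.05), Fkbp14 (-1.89) and Loxl3 (-1.77) were lower. Serpinh1 was at 366 and 392 against 296 and 259 CPM (-1.07, SE 0.234), and Ddr2 at 17.6 and 23.3 against 127 and 115 CPM (1.96, SE 0.188). Lox was at or below 0.273 CPM in every pool of tumor cells (-1.51, adjusted p 0.0487, and -0.89, adjusted p 0.291, with class totals), whereas fibroblasts held 578 CPM or more.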

How the data were processed

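UMI counts per gene and barcode were deposited by the authors as sparse matrices of whole-number counts, 1 library per group, from SeekOne Digital Droplet 3′ libraries per the labels' protocols. Per the submitters' processing notes, counting used mm10. Aligner, counter, cell caller and strand setting: not given in the sources used here. Barcodes with at least 500 UMIs, 300 genes and at most 20% mitochondrial UMIs were kept. Classes were gated on fixed markers (for fibroblasts at least 4 of 9 and 20 UMIs per 10000), with limits on markers of other classes. The Sox9+Tnnt2+Crabp2+ gate was applied to MC38 libraries only, and the melanoma gate to B16F10 libraries only. No doublet caller was run. Sox9, Tnnt2 and Crabp2, the collagen members and the gene lists were chosen with earlier results of these data known.

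From the deposited counts, CPM, exact Poisson 95% intervals and exact conditional binomial intervals of ratios were computed with Python 3.11.15 and scipy 1.17.1. Class sums were tested with edgeR 4.0.16 (quasi-likelihood, TMM, filterByExpr, terms genotype and model, Benjamini-Hochberg over all genes, threshold 0.05), and as an alternative with DESeq2 1.42.0. The script was tested on simulated data. Alternatives were a stricter and a looser gate, class totals without TMM, no filter, DESeq2, each library left out with the genotype term dropped, macrophage CPM subtracted, per-cell means, and no cells of very high UMI count. Named collagens had at least 10 CPM in 2 libraries of a stromal or tumor class. Named pathway genes were those past the threshold, at most 6 per direction, plus Serpinh1, Lox and Ddr2. Col9a3, Col11a1, Col11a2, Col4a4, Col9a1, Col2a1 and Col8a2 values outside that rule were named after they were seen. Gene positions are GRCm38, from GENCODE, for all 44 members, and promoter windows are from RefSeq GRCm38.p6, for 35 members. Per class and library the sums held from 34661 UMIs (3 endothelial cells) to 76832576 UMIs (melanoma cells), which sets the precision.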

Additional observations from a re-analysis of the deposited data

Results flagged for a closer look

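Col12a1 in fibroblasts moved in opposite directions between genotypes in the 2 tumor models, with 0.662 (0.560 to 0.785) as the Lrrc25-/- to WT ratio of B16F10 and 1.77 (1.53 to 2.05) as that of MC38. With 1 pool per genotype and model, the difference between the models was not tested.

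Col27a1 in macrophages did so too, with a ratio of 2.72 in B16F10 (14 UMIs in WT and 49 in Lrrc25-/-) and 0.519 in MC38 (84 and 53 UMIs). That difference was not tested either. Intervals cover counting error only.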

How the results depend on the processing

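Collagen calls past the threshold numbered 51 (8 in fibroblasts, 28 in tumor cells and 15 in macrophages), with a gene counted once per class. Of their 406 alternative values, 382 stayed past it in the same direction, 24 did not pass, and none changed sign. The number of collagens called by model was 6 to 9 in fibroblasts, 14 to 17 in macrophages and 27 to 29 in tumor cells when a library was left out. With class totals it was 13 in fibroblasts (8 with TMM), and 1 by genotype (none with TMM).

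Collagens of fibroblasts that were not called by model changed sign in places. Under the stricter gate the log2 differences became 0.22 (Col6a3), 0.05 (Col5a3), 0.09 (Col6a2) and 0.26 (Col6a1). With class totals they became 0.26 (Col3a1), 0.69 (Col6a3), 0.29 (Col5a1), 0.45 (Col15a1), 0.10 (Col16a1), 0.08 (Col4a1), 0.68 (Col5a3), 0.60 (Col6a2) and 0.74 (Col6a1), by the shift of all genes. Leaving out a library gave 0.03 for Col6a2 (without Lrrc25-/- B16F10) and 0.24 for Col6a1 (without WT MC38). Without Lrrc25-/- MC38 the values were 0.12 for Col6a3, 0.25 for Col15a1 and -0.22 for Col1a2.

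Under the stricter gate, 2 collagens were past the 1.5-fold ratio in MC38 fibroblasts, 2 in B16F10 pericytes and 2 in MC38 macrophages (5, none and 4 otherwise). The Lrrc25-/- to WT ratio of fibrillar collagen in B16F10 fibroblasts was 0.894 under the stricter gate, 0.955 under the looser gate and 0.896 as a mean per cell. That of other collagens was 1.13 under the stricter gate and 1.20 as a mean per cell. In MC38 fibroblasts the fibrillar ratio was 1.08 (stricter), 1.48 (looser), 1.31 (without the 5% of cells with most UMIs) and 1.43 (mean per cell). The basement-membrane ratio was 0.78 (stricter), and that of other collagens 1.06 (stricter), 1.10 (without the 5%) and 1.12 (mean per cell). In B16F10 endothelium the basement-membrane ratio was 0.973 and the fibrillar ratio 3.73 without the 5%, and the latter was 5.05 as a mean per cell. In B16F10 pericytes the fibrillar ratio was 1.43 (stricter), 1.20 (looser) and 1.17 (without the 5%). In melanoma cells the ratio of all collagens was 1.23 (stricter), 1.51 (mean per cell) and 1.22 (macrophage CPM subtracted). The cause of these changes was not tested. No paired analysis was possible because each group is 1 pool with no second replicate number to pair by; the model test itself holds genotype as a term. Depth limits collagens with few UMIs in fibroblasts, such as Col7a1, Col23a1 and Col24a1.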
